A study of Mus musculus with 10 samples.

Results

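Targets of WNT and beta-catenin signalling were followed in *Max*-null ESCs before and after the removal of *Max*, in 2 culture media, of which one, 2i+LIF, holds an inhibitor of the kinase GSK3. The members are genes listed by name as targets or effectors of the pathway: *Axin2*, *Lef1*, *Tcf7*, *Tcf7l1*, *Sp5*, *Nkd1*, *Cdx1*, *Apcdd1* and *Dkk1*. A probe set was taken where the annotation of the array gave only 1 of these symbols, which found 8 of the 9 genes on 20 of 45037 probe sets (the annotation named 18193 genes in all). *Tcf7* was not analysed here because no probe set carried its symbol alone. Where a gene had several probe sets, it was read from the one with the highest mean over the 10 arrays, and the others are given beside it.

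WNT ligands bind Frizzled receptors and LRP co-receptors at the cell surface, and this stops a complex of AXIN, APC, CK1 and GSK3 from marking beta-catenin for destruction. Stable beta-catenin enters the nucleus, binds the DNA-binding factors TCF7, LEF1, TCF7L1 and TCF7L2 and switches on target genes, several of which encode inhibitors of the same pathway. In mouse ESCs, GSK3 inhibitors stabilise beta-catenin without a ligand, and they favour self-renewal in part by lifting the repression that TCF7L1 holds over pluripotency genes.

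RNA was measured on 10 Affymetrix expression arrays of male 129SV ESCs of 1 line, all of which carry a disrupted endogenous *Max* gene and live on a *Max* cDNA that doxycycline (Dox) switches off, so that the untreated cells are not wild type either. In medium with leukaemia inhibitory factor and serum (LIF+serum), a first array set held an untreated array and Dox 1, 2, 3 and 4 d, and a second set a second untreated array and Dox 6 and 8 d. In 2i+LIF, which adds an inhibitor of MEK and one of GSK3, there was 1 untreated array, labelled as 6 d in 2i, and 1 array of Dox 6 d. Every Dox time is 1 array, and no source used here tells whether the untreated arrays are separate cultures, so the p-values speak only for the spread of these arrays, which may be technical.

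All values are log2 values from robust multi-array analysis (RMA), each fold sets a Dox array over the untreated array of its set, and folds carry no test. Trends are slopes per day of Dox over the 8 arrays in LIF+serum, with the array set as a covariate, tested with limma, and their p-values were adjusted over all 45037 probe sets (Benjamini-Hochberg, threshold 0.05). The untreated 2i+LIF array was compared with both untreated LIF+serum arrays in a second limma fit, in which the lone array is assumed to vary like that pair. In that comparison medium and array set cannot be told apart. The array medians were 5.14 and 5.16 in 2i+LIF and 5.26 to 5.33 in LIF+serum, and the median difference between the media over all probe sets was -0.16 on the log2 scale. The 3′ probe set of beta-actin exceeded the 5′ one, an excess that grows as RNA shortens, by 0.41 to 0.56 (log2) in the first array set, by 0.88 on the second untreated array, by 1.46 and 1.22 at 6 and 8 d and by 0.78 and 0.76 in 2i+LIF. For GAPDH, the 3′ minus 5′ difference was -0.09 to -0.01 in the first array set and 0.12 on the second untreated array. It was 0.09 and 0.05 at 6 and 8 d and -0.12 and -0.09 in 2i+LIF. Unlike beta-actin, GAPDH thus showed no rise at 6 and 8 d over the untreated array of that set. The part of the beta-actin excess in the results below was not tested. As in any bulk sample, more cells with a transcript and more transcript per cell cannot be told apart.

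The label of the cells was checked against 8 markers of ESCs, of which the defining factors *Pou5f1* and *Sox2* are given whatever their change. *Pou5f1* lay between 11.92 and 12.99 and *Sox2* between 11.54 and 12.67 on the 10 arrays. The summed linear level of the 8 markers was 37155 and 40226 on the untreated LIF+serum arrays, 39834 to 55062 on the Dox arrays and 47638 and 53883 in 2i+LIF. *Klf4* and *Nanog* rose with Dox in LIF+serum and *Utf1* fell, and none of the 8 differed between the media at an adjusted p under 0.05 from limma.

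The promoter letters are shown for 3 members. *Axin2* and *Sp5* moved in opposite directions in LIF+serum. *Dkk1* shares with *Sp5* the largest number of TCF/LEF motifs found among the 6 members searched. Windows of 250 bases before the transcription start came from RefSeq (GRCm38.p6). They were searched for 6 of the 8 genes (9 windows, of which 4 belong to *Lef1*). *Cdx1* and *Apcdd1* were not searched, because the chromosome that holds them was left out of the members' windows. The motif of TCF/LEF factors was searched on both strands as CTTTG followed by a pair of bases that are each A or T, the form CTTTGTT being one that SOX factors read too, and matches are in capitals. In *Sp5*, 1 match lies 222 bases before the start on the minus strand and the other 104 bases before it. In *Dkk1* they begin 117 and 98 bases before it, and the window of *Axin2* holds none.
Sp5 (chr2:70474673-70474922, plus strand): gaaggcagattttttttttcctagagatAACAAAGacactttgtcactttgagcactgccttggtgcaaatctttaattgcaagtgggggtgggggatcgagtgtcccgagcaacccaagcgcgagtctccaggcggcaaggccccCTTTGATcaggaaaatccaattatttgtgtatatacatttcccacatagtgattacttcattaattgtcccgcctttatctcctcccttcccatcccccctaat
Dkk1 (chr19:30549497-30549746, minus strand): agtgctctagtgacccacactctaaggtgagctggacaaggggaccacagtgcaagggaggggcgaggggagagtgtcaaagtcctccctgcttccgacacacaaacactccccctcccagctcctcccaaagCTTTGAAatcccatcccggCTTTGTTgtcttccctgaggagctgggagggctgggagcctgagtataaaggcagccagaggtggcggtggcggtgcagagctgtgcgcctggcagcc
Axin2 (chr11:108920099-108920348, plus strand): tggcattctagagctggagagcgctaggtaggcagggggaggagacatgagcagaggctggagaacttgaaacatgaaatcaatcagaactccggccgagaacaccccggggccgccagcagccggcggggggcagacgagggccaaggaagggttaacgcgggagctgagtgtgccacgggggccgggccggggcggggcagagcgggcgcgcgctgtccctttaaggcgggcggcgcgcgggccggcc
At least 1 match was present in 3 of the 9 windows of the members and in 14.8% of all 32851 windows, and at least 2 in 1.43% of all windows. The other window with a match was the most downstream of the 4 of *Lef1*. A match is a stretch of letters and no measured binding site, and windows of this size leave out enhancers and introns.

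Over the days of Dox in LIF+serum, *Axin2*, *Cdx1* and *Apcdd1* rose, *Sp5* fell, and *Lef1*, *Tcf7l1*, *Nkd1* and *Dkk1* did not pass the test. Of the 20 probe sets, 4 rose (1 of *Axin2*, 1 of *Cdx1*, 2 of *Apcdd1*) and 1 fell, beside 4.77% and 4.17% of all probe sets. At an unadjusted p under 0.05, 7 of the 20 had a positive and 4 a negative slope, beside 11.7% and 12.4% of all probe sets. All of these calls except that of *Cdx1* lay close to the threshold.

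*Axin2* encodes a scaffold of the destruction complex and is the most widely used readout of the pathway. Its brighter probe set (1436845_at) read 7.25 on the first untreated array, 7.37, 6.74, 7.45 and 7.81 at 1, 2, 3 and 4 d, 7.22 on the second untreated array and 8.27 and 8.45 at 6 and 8 d. The 2 d array was the lowest, and from 3 d on every array lay above both untreated ones. *Axin2* reached 2.07 times the untreated level at 6 d and 2.35 times at 8 d, and its slope was 0.15 ± 0.04 per day (log2, SE, adjusted p = 0.0477 from limma). Without the second untreated array, whose omission ended the calls of all probe sets, the slope was 0.12. The adjusted p was also above 0.05 without the 1, 3, 4, 6 or 8 d array. The dimmer probe set of the gene (1421341_at) stayed between 4.03 and 4.56 on all 8 arrays, with a slope of 0.01 (adjusted p = 0.887 from limma).

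*Cdx1*, a homeobox gene of the caudal family with TCF/LEF sites in its promoter, showed the steepest slope of the members. Its only probe set read 5.61 and 5.96 on the untreated arrays, 5.98, 5.77, 6.77 and 7.02 at 1 to 4 d, and 7.60 and 7.95 at 6 and 8 d. Both untreated arrays, 1 d and 2 d were low, and 3 to 8 d were higher than all of them. The folds were 2.65, 3.12 and 3.96 at 4, 6 and 8 d (slope 0.28 ± 0.04 per day, SE, adjusted p = 0.00402 from limma). Of the 8 arrays, only the omission of the second untreated one ended the call, as it did for all probe sets, and the slope was then 0.33.

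*Apcdd1* encodes a membrane glycoprotein that binds WNT ligands and LRP co-receptors and inhibits the pathway. Its brightest probe set (1454822_x_at) read 7.25 and 6.52 on the untreated arrays, 7.11, 6.22, 7.19 and 7.68 at 1 to 4 d, and 8.22 and 8.46 at 6 and 8 d. Only 4, 6 and 8 d stood above both untreated arrays, which differed between themselves by more than 1 to 4 d differed from the first of them, except 2 d. The fold at 8 d was 3.85 over the second untreated array and 2.32 over the first (slope 0.22 ± 0.06, SE, adjusted p = 0.0489 from limma). A second probe set, 1418382_at, rose from 5.98 and 5.92 on the untreated arrays to 7.36 at 6 d and 7.76 at 8 d (adjusted p = 0.0499 from limma). Either call was lost when any 1 of the second untreated array and the 1, 3, 4, 6 and 8 d arrays was left out. Without the second untreated array, whose omission ended the calls of all probe sets, the slopes were 0.10 and 0.11. Of the other 4 probe sets of *Apcdd1*, 1449070_x_at (3.24-fold at 8 d) and 1418383_at (2.72-fold) had positive slopes with adjusted p of 0.0786 and 0.161 from limma, while 1437604_x_at and 1443639_at were 1.28-fold and 1.12-fold.

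*Sp5* encodes a zinc-finger factor that is a direct target of beta-catenin and dampens other targets. It read 6.99 and 6.60 on the untreated arrays, 7.34, 5.89, 6.39 and 5.84 at 1 to 4 d, and 5.68 and 5.37 at 6 and 8 d. After a higher value at 1 d, every later array lay below both untreated ones. The folds were 0.450, 0.527 and 0.423 at 4, 6 and 8 d, and the log2 value fell by 0.19 ± 0.05 per day (SE, adjusted p = 0.0466 from limma). Leaving out either untreated array or the 3, 4, 6 or 8 d array ended the call, with slopes from -0.30 to -0.18.

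**Figure D1:**
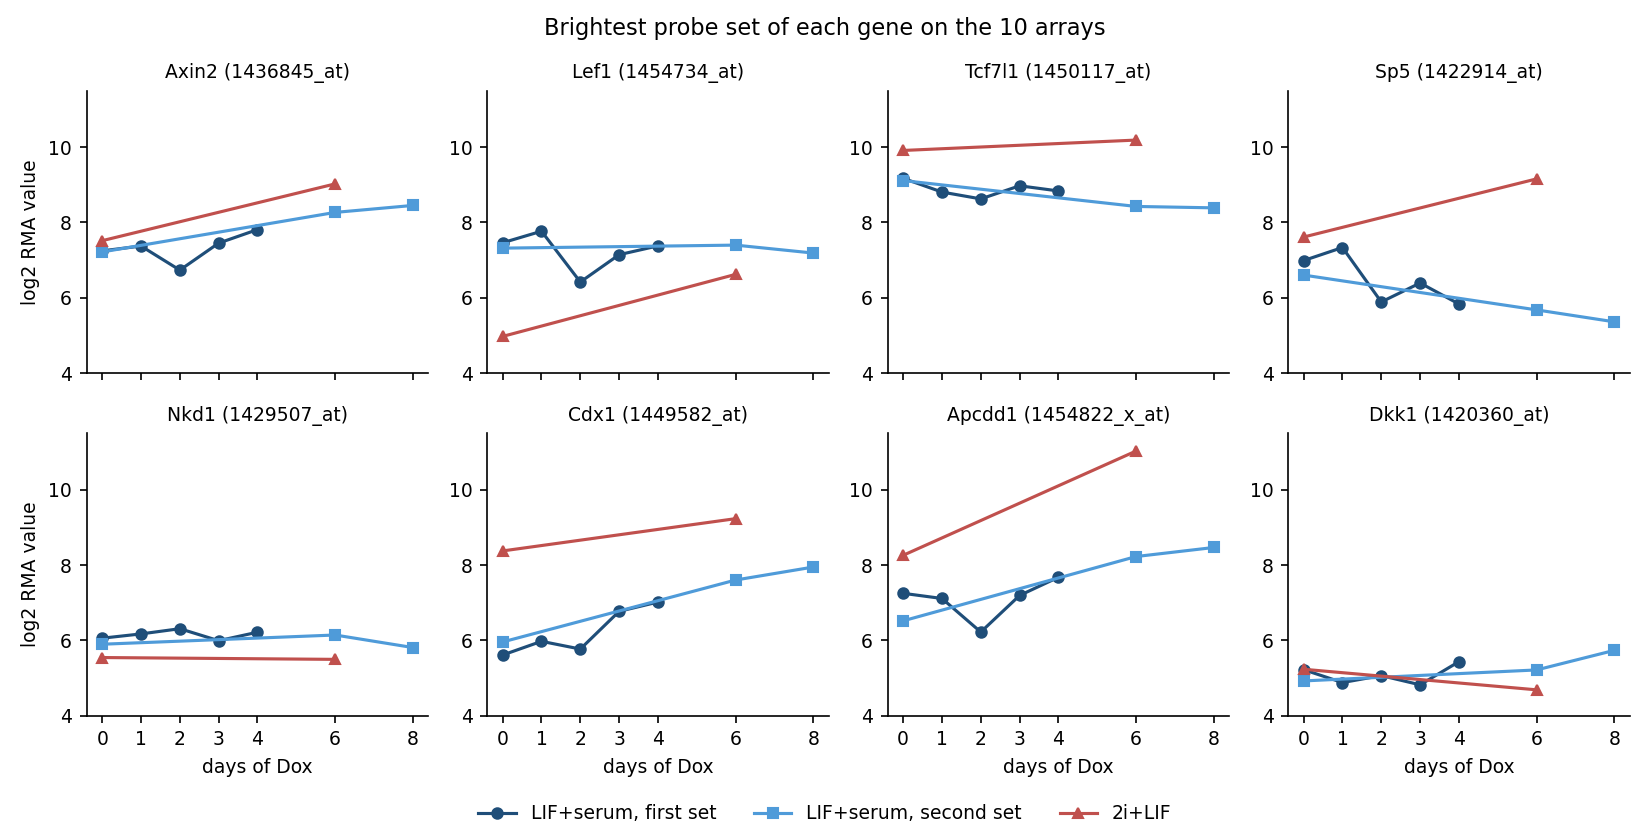
Log2 RMA value of the brightest probe set of each of the 8 genes against days of Dox. Circles and squares are the first and second array sets in LIF+serum, triangles are the 2i+LIF arrays, and every point is 1 array, so there are no error bars. *Axin2*, *Cdx1* and *Apcdd1* are highest at 8 d among the LIF+serum arrays, *Sp5* is lowest there (5.37), and the 2i+LIF line of *Lef1* lies apart from the others at 0 d (4.98 against 7.46 and 7.32).

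Of the DNA-binding factors, *Lef1*, which is both a partner of beta-catenin and its target, read 7.46 and 7.32 on the untreated arrays, 7.77, 6.42, 7.15 and 7.38 at 1 to 4 d, and 7.40 and 7.19 at 6 and 8 d (1454734_at). Apart from the low 2 d array, these values lay between 7.15 and 7.77, and the slope was -0.02 per day (adjusted p = 0.831 from limma). *Tcf7l1*, which represses its targets until beta-catenin binds it, read 9.17 and 9.11 untreated and between 8.39 and 8.97 on the 6 Dox arrays (1450117_at). All 6 Dox arrays were below both untreated arrays, with a fold of 0.606 at 8 d and a slope of -0.09 ± 0.03 (SE, adjusted p = 0.113 from limma), and so they were on the second probe set, with a fold of 0.663 at 8 d (adjusted p = 0.112).

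The 2 remaining inhibitors gave no call in LIF+serum. *Nkd1*, which binds Dishevelled, lay between 5.81 and 6.31 on its brightest probe set (slope 0.00, adjusted p = 0.957 from limma). Another of its 4 probe sets, 1429506_at, read 4.83 and 4.95 untreated, at most 5.20 up to 4 d, and 5.78 and 5.62 at 6 and 8 d (adjusted p = 0.0789). At 8 d it was 1.59-fold, 1440446_at 1.58-fold and 1417278_a_at 1.54-fold (adjusted p = 0.607 and 0.396 for the last 2, from limma), while the brightest was 0.941-fold. Over the first untreated array 1440446_at was 1.02-fold at 8 d. The mean of the probe sets had a slope of 0.05 (adjusted p = 0.213 from limma). *Dkk1*, a secreted blocker of LRP5 and LRP6, lay between 4.82 and 5.74 with its highest value at 8 d (1.75-fold, adjusted p = 0.221), and its second probe set read 2.34 to 3.10, at the bottom of the scale.

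The 2 d array stood low for several members. *Axin2*, *Lef1* and *Apcdd1* had the lowest value of their brightest probe set over the 8 arrays there, and 7 of the 20 probe sets (both of *Lef1*, that of *Sp5* and 4 of *Apcdd1*) were at least 2-fold lower than on the first untreated array, beside 1.04% of all probe sets. None of the 20 was 2-fold higher at 2 d, beside 4.23% of all. Against the second untreated array, and against the mean of both, 0 of the 20 were 2-fold lower at 2 d. The median fold at 2 d was 0.693 over the 8 genes and 0.959 over all probe sets.

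At later times the balance moved upward. At 4 d, 1 probe set was at least 2-fold higher (*Cdx1*) and 1 lower (*Sp5*), beside 6.92% and 3.16% of all probe sets. At 6 d, 6 were higher (*Axin2*, *Cdx1* and 4 of *Apcdd1*) and 0 lower, beside 5.77% and 4.27%. At 8 d the same 6 were higher and *Sp5* was lower, beside 5.49% and 4.51%. The median fold over the 8 genes was 1.20 at 6 d and 1.28 at 8 d, beside 0.975 and 0.979 over all probe sets. Since *Apcdd1* alone gives 4 of these probe sets, the counts stand for 3 genes.

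In untreated 2i+LIF, where GSK3 is inhibited, no member passed the test against untreated LIF+serum. *Cdx1*, *Sp5* and *Tcf7l1* (1450117_at) lay above all 8 LIF+serum arrays, and both probe sets of *Lef1* and the brightest of *Nkd1* lay below all 8. That is 3 of 20 above and 3 of 20 below, beside 14.2% and 28.0% of all probe sets, counts near or below that background. In the limma fit 0 of the 20 passed in either direction, beside 0.091% higher and 0.0377% lower among all, and at an unadjusted p under 0.05 there were 2 higher (*Cdx1*, *Apcdd1*) and 2 lower (both of *Lef1*), beside 4.48% and 5.87% of all probe sets.

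*Cdx1* read 8.37 in untreated 2i+LIF, 6.01-fold the mean of the untreated LIF+serum arrays and above the 7.95 of Dox 8 d. The difference was 2.59 ± 0.42 (log2, SE, adjusted p = 0.0980 from limma), and 169 of all probe sets showed a larger rise between the media. *Sp5* read 7.61 against 6.99 and 6.60 (1.76-fold, adjusted p = 0.560), and *Tcf7l1* 9.91 against 9.17 and 9.11 (1.70-fold, adjusted p = 0.564). The second probe set of *Tcf7l1* read 9.06, between its untreated LIF+serum values of 9.05 and 9.21. *Apcdd1* read 8.26 against 7.25 and 6.52 (2.59-fold, adjusted p = 0.396), a value inside the range of the Dox arrays. Its other probe sets showed less: 1449070_x_at was 1.75-fold, 1418383_at 1.57-fold and 1418382_at 1.56-fold. On 1437604_x_at and 1443639_at it was lower (0.926-fold and 0.750-fold). The mean of its probe sets differed by 0.49 (log2, adjusted p = 0.629 from limma).

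*Axin2* read 7.52 in untreated 2i+LIF against 7.25 and 7.22 in LIF+serum, which is 1.22-fold (0.28 ± 0.40, SE, adjusted p = 0.832 from limma). Its value lay below those of Dox 4, 6 and 8 d in LIF+serum. *Dkk1* read 5.24 against 5.22 and 4.93. The dimmer probe set of *Axin2* was 1.08-fold and that of *Dkk1* 0.761-fold.

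*Lef1* was the lowest of the members relative to LIF+serum. In untreated 2i+LIF it read 4.98, while none of the 8 LIF+serum arrays was below 6.42. The level was 0.188-fold the mean of the untreated arrays (difference -2.41 ± 0.41, SE, adjusted p = 0.110 from limma), and 126 of all probe sets showed a larger fall. The second probe set, 1421299_a_at, read 3.33 against 5.75 and 4.46 (0.292-fold, adjusted p = 0.377). *Nkd1* read 5.55 against 6.06 and 5.90 (0.741-fold, adjusted p = 0.738). Its probe sets 1429506_at, 1417278_a_at and 1440446_at were 0.798-fold, 0.934-fold and 1.25-fold.

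In 1 limma fit over all 10 arrays, the spread came from the LIF+serum arrays alone. Its 5 residual and 4.81 prior degrees of freedom were those of the slope fit. The difference between the media was 2.60 for *Cdx1*, 0.86 for *Tcf7l1* (1450117_at) and -2.37 for *Lef1* (1454734_at). In the fit of the untreated arrays these were 2.59, 0.77 and -2.41. Calls of *Cdx1*, *Tcf7l1* and both probe sets of *Lef1* in the fit over 10 arrays therefore do not measure how 2i+LIF arrays vary. The count of all probe sets called then went from 41 higher and 17 lower to 2231 and 3259.

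**Figure D2:**
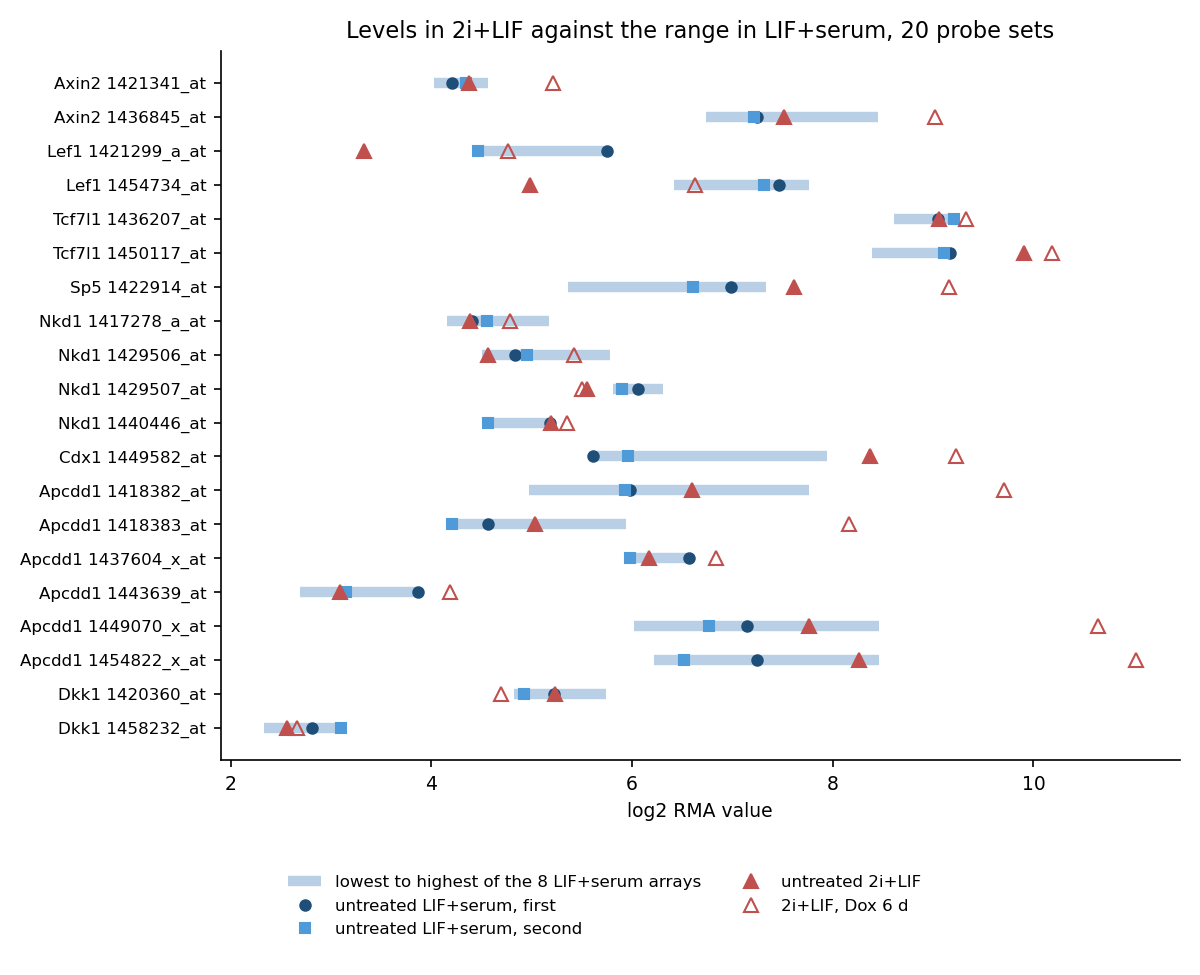
Log2 RMA value of the 20 probe sets in 2i+LIF (filled triangle untreated, open triangle Dox 6 d) against the lowest to highest value of the 8 LIF+serum arrays (bar), with both untreated LIF+serum arrays marked. Each mark is 1 array. Untreated 2i+LIF lies above the bar for 3 probe sets and below it for 3, and Dox 6 d in 2i+LIF lies above it for 13 and below it for 2.

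With Dox 6 d in 2i+LIF, 9 of the 20 probe sets were at least 2-fold higher (1 of *Axin2*, 2 of *Lef1*, that of *Sp5* and 5 of *Apcdd1*) and 0 were lower, beside 1.22% and 1.8% of all probe sets. The median fold was 2.27 over the 8 genes, 1.81 over the 20 probe sets and 1.02 over all probe sets. These are differences between 1 array and 1 array, with no replicate. The fold at 6 d was higher in 2i+LIF than in LIF+serum for 5 of the 8 genes (*Axin2*, *Lef1*, *Tcf7l1*, *Sp5* and *Apcdd1*), a share near the 56.7% of all genes.

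*Apcdd1* had the largest folds. Its brightest probe set went from 8.26 to 11.02 (6.80-fold), and 1418383_at, 1418382_at and 1449070_x_at were 8.77-fold, 8.65-fold and 7.38-fold. These 4 ranked 9, 10, 14 and 15 among the rises of all 45037 probe sets on that array pair. At 6 d in LIF+serum the same 4 were 3.26-fold, 3.33-fold, 2.71-fold and 2.70-fold in that order of naming. The remaining probe sets, 1443639_at and 1437604_x_at, were 2.14-fold and 1.59-fold, and an _x_at set can also detect related sequences.

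*Lef1*, *Sp5* and *Axin2* followed with similar folds. *Lef1* went from 4.98 to 6.62 (3.13-fold), while at 6 d in LIF+serum it was 1.06-fold. Among the LIF+serum arrays only the low 2 d array (6.42) lay below this value, and both untreated ones (7.46 and 7.32) lay above it. *Sp5* went from 7.61 to 9.16 (2.91-fold, 3.53-fold the highest LIF+serum array), while at 6 d in LIF+serum it was 0.527-fold. *Axin2* went from 7.52 to 9.02 (2.84-fold, against 2.07-fold in LIF+serum), and its dimmer probe set from 4.38 to 5.21 (1.78-fold).

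*Cdx1* went from 8.37 to 9.23 (1.81-fold), less than its 3.12-fold in LIF+serum and from a higher start. *Tcf7l1* was 1.21-fold on both probe sets, where all 6 Dox arrays in LIF+serum had been below their untreated array. *Nkd1* was 0.967-fold on its brightest probe set, 1.80-fold on 1429506_at, 1.32-fold on 1417278_a_at and 1.12-fold on 1440446_at. *Dkk1* went from 5.24 to 4.69 (0.685-fold), below all 8 LIF+serum arrays.

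After Dox in 2i+LIF, 13 of the 20 probe sets lay above all 8 LIF+serum arrays and 2 below (*Nkd1* and *Dkk1*, 1 each), beside 14.7% and 26.5% of all probe sets. The 13 are every probe set of *Apcdd1*, *Axin2*, *Tcf7l1*, *Sp5* and *Cdx1*, and 1440446_at of *Nkd1*. Probe sets of the same gene are not independent, and *Apcdd1* gives the most of them. Whether the response to Dox differs between the media was not tested, as there is 1 array for each state in 2i+LIF.

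**Figure D3:**
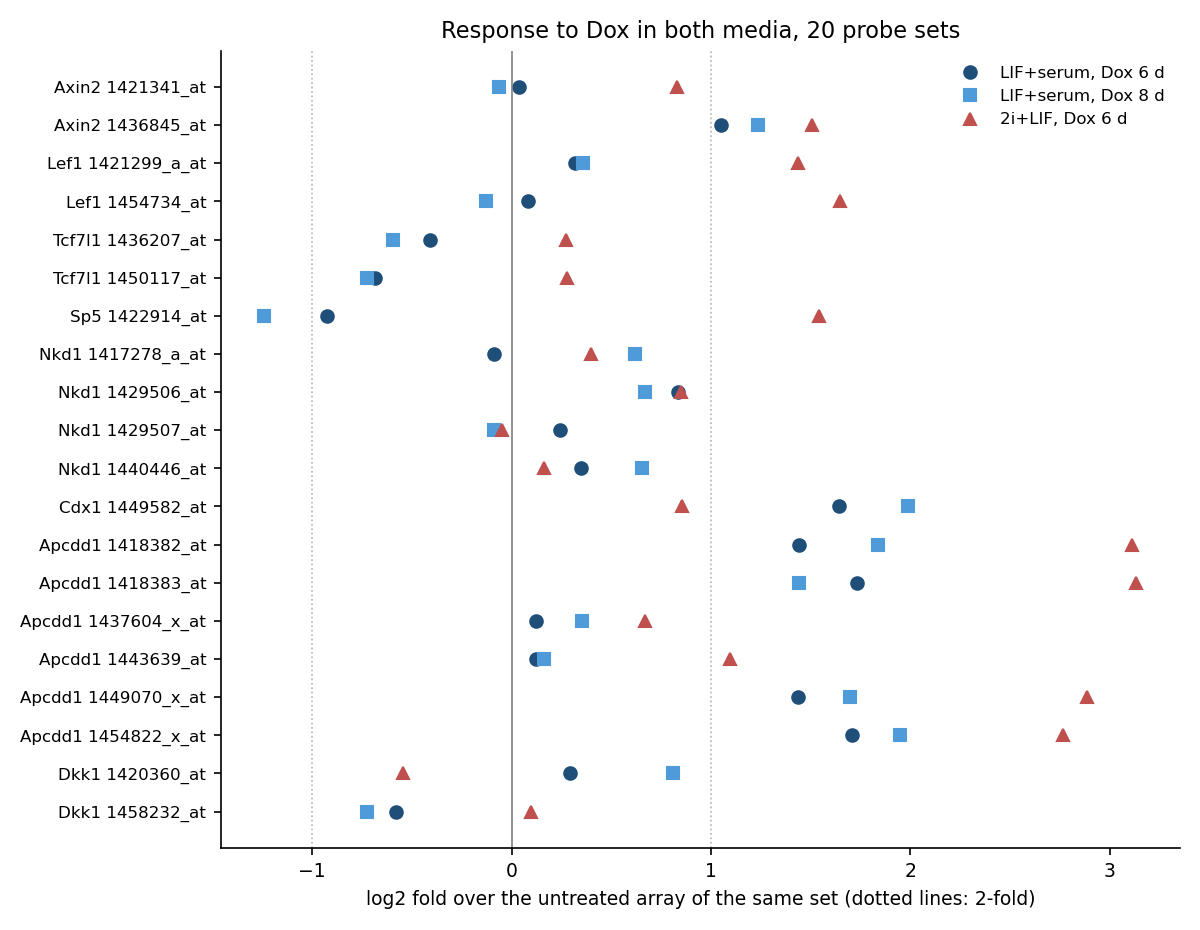
Log2 fold of the 20 probe sets over their untreated array after Dox 6 and 8 d in LIF+serum (circles, squares) and 6 d in 2i+LIF (triangles), with dotted lines at 2-fold and 1 array pair per mark. *Sp5* lies left of 0 in LIF+serum (-0.92 and -1.24) and right of it in 2i+LIF (1.54), and 4 probe sets of *Apcdd1* lie farthest right.

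The other genes of the pathway were read from 6 lists, in which 110 of 113 genes were measured. In LIF+serum 5 of the 110 rose and 2 fell with Dox, beside 5.75% and 5.33% of all genes read from their brightest probe set, and 0 differed between the untreated media in limma. At 6 d in 2i+LIF, 4 of the 110 were at least 2-fold higher and 2 lower, beside 1.75% and 2.42% of all genes.

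Among 21 ligands and factors of ligand secretion, *Wnt9a* rose (2.68-fold at 8 d, limma adjusted p = 0.0477). *Wnt8b* and *Wnt5a* had the largest differences between the untreated media (-1.63 and -1.33, adjusted p = 0.311 and 0.343). Among 22 receptors and their partners, *Fzd3*, a Frizzled receptor, rose from 4.20 and 5.64 on the untreated arrays to 8.22 and 7.64 at 6 and 8 d (adjusted p = 0.0245), and the co-receptor *Lrp6* rose (1.67-fold at 8 d, adjusted p = 0.0439). *Ror1*, a receptor tyrosine kinase for WNT5A, fell (0.301-fold at 8 d, adjusted p = 0.0322). In untreated 2i+LIF *Ror1* read 3.44 against 6.66 and 6.33, and *Fzd7* was 0.220-fold (adjusted p = 0.0625 and 0.162).

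Of 17 secreted and membrane inhibitors, *Wif1*, which binds WNT ligands, rose from 2.79 and 2.56 untreated to 4.09 and 4.77 at 6 and 8 d (adjusted p = 0.0216 from limma). It was 3.00-fold with Dox in 2i+LIF. On all 10 arrays *Wif1* lay below the array median, so it is a dim probe set. *Shisa2* and *Sfrp1* differed most between the untreated media (-1.97 and 1.40, adjusted p = 0.265 and 0.392). Of 19 genes of signal transduction and the destruction complex, 0 were called by limma in either comparison. *Dvl1* and *Gsk3b*, the kinase gene itself, had the largest slopes (-0.09 and 0.09, adjusted p = 0.0789 and 0.0728), and *Dact1* and *Csnk1e* the largest differences between media (-1.74 and 0.99, adjusted p = 0.233 and 0.501). *Ctnnb1*, which encodes beta-catenin and was picked after its values were seen, lay between 12.11 and 12.71 on all 10 arrays.

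Of 13 nuclear effectors, *Tle6* rose (2.18-fold at 8 d, limma adjusted p = 0.0487), and *Tle1* and *Tle2* differed most between media (-1.03 and -0.99, adjusted p = 0.528 and 0.486). Of 23 other targets, the cyclin gene *Ccnd1* fell from 10.05 and 10.18 untreated to 8.25 at 4 d, 8.03 at 6 d and 8.06 at 8 d (0.230-fold, adjusted p = 0.00362). In 2i+LIF *Ccnd1* was 9.05 untreated and 10.04 after Dox, 1.98-fold. *Myc* read 6.08 in untreated 2i+LIF against 9.10 and 9.48 (0.108-fold, adjusted p = 0.0555), and *Jun* was 4.00-fold (adjusted p = 0.292).

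The 6 pathway genes past 2-fold with Dox in 2i+LIF were named after their values were seen. *Notum*, which encodes a secreted enzyme that inactivates WNT ligands and is a beta-catenin target, went from 7.28 to 9.35 (4.20-fold), while in LIF+serum it had folds of 0.610 and 0.490 at 6 and 8 d. *Wif1* was 3.00-fold, *Myc* 2.56-fold and *Wnt5b* 2.54-fold higher, and *Wls*, needed for ligand secretion, and *Jun* were 0.252-fold and 0.403-fold.

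**Figure D4:**
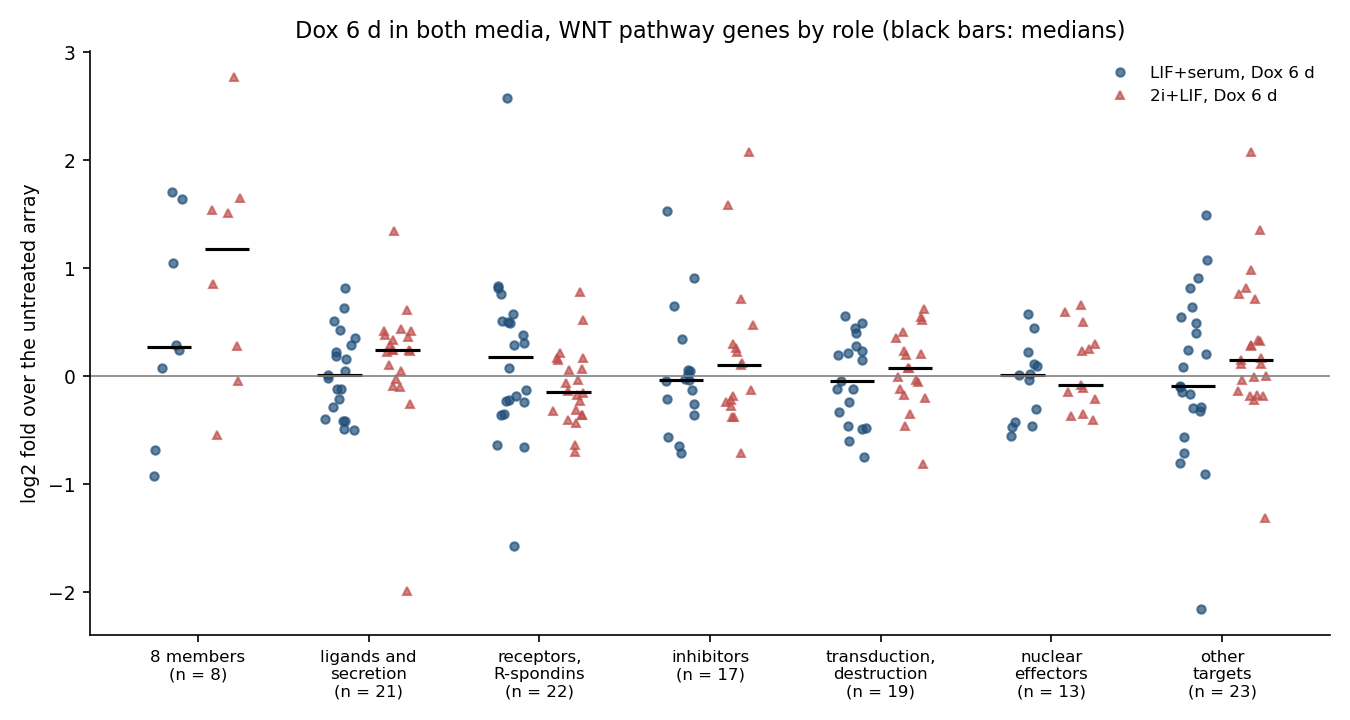
Log2 fold at Dox 6 d in LIF+serum (circles) and in 2i+LIF (triangles) for the 8 members and the measured genes of the 6 pathway lists, with 1 point per gene, medians as black bars and a gene of 2 lists shown in both. The median of the members is 0.27 in LIF+serum and 1.18 in 2i+LIF. As folds, the medians of the 6 lists are 0.942 to 1.13 in LIF+serum and 0.904 to 1.18 in 2i+LIF, beside 1.20 and 2.27 for the members.

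Genes that TCF7L1 is known to repress and genes downstream of the second inhibitor in 2i were read beside the members. Of 6 pluripotency genes repressed by TCF7L1, *Nanog* (1.88-fold at 8 d, limma adjusted p = 0.0433) and *Tbx3* (2.32-fold, adjusted p = 0.0297) rose with Dox. *Tfcp2l1* and *Tbx3* differed most between the untreated media (4.41-fold and 2.73-fold, adjusted p = 0.253 and 0.537). Of 11 feedback genes of ERK signalling, which MEK drives, 7 lay below all 8 LIF+serum arrays in untreated 2i+LIF, beside 24.5% of all genes. *Spry4*, an inhibitor of the ERK cascade, read 5.19 there against 8.88 on both untreated arrays (difference -3.69, adjusted p = 0.0381) and went to 7.29 with Dox in 2i+LIF (4.30-fold). *Fos* rose in LIF+serum (6.00-fold at 8 d, adjusted p = 0.00734).

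Markers of other cell types were read because *Cdx1* and *Lef1* are also expressed in differentiating cells. Of 9 primitive endoderm markers, *Pdgfra* rose with Dox (6.05-fold at 8 d, limma adjusted p = 0.00263), and the summed linear level of the list was 546 and 622 on the untreated LIF+serum arrays, 509 to 900 on the Dox arrays and 924 to 1094 in 2i+LIF. The higher sum in 2i+LIF was not shared by the list as a whole. The median difference between the untreated media over the 9 was -0.14 (log2), with 3 above and 3 below all 8 LIF+serum arrays. Of 7 trophectoderm markers, the keratin gene *Krt7* rose (5.75-fold at 8 d, adjusted p = 0.0133), and the sum was 439 and 552 untreated, 343 to 1812 with Dox and 687 to 1840 in 2i+LIF. *Krt8*, which read 10.43 in untreated 2i+LIF against 7.65 and 7.42, was the largest term there, and *Cdx2* lay between 3.85 and 5.25 on all arrays.

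Of 7 mesoderm and primitive streak markers 0 were called by limma, with summed levels of 255 and 310 untreated, 272 to 408 with Dox and 325 to 329 in 2i+LIF. *Eomes* and *Hand1* had the largest slopes (0.08 and 0.03, adjusted p = 0.490 and 0.552). Of 6 neuroectoderm markers *Pax6* was lower in untreated 2i+LIF (3.43 against 7.87 and 7.75, adjusted p = 0.0364), and the sum was 391 and 472 untreated, 340 to 516 with Dox and 205 to 210 in 2i+LIF. Of 9 fibroblast markers 0 were called, and the sum was 1567 and 3329 untreated, 1901 to 4875 with Dox and 4548 to 4690 in 2i+LIF. The higher sum in 2i+LIF was not shared by most of the list, since a linear sum is carried by its brightest genes. In untreated 2i+LIF, 0 of the 9 lay above all 8 LIF+serum arrays and 5 lay below, beside 24.5% of all genes below. The median difference between the untreated media over the 9 was -0.40 (log2). RMA values have no zero, so no marker can be read as absent, and the part of other cells in the members' values was not tested.

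The genes whose values ran most like those of *Axin2* over the 10 arrays were sought among 4670 genes with an SD over the arrays of at least 0.5 (log2). The arrays share a time course and 3 sets, so the correlations are a description. *Nceh1* had the highest Pearson r (0.97), reading 6.59 on the first untreated array, 8.66 at 8 d and 9.78 after Dox in 2i+LIF. *Susd4* (0.96), *Sertad3* (0.95), *Dnajc16* (0.95) and *Adssl1* (0.95) followed. The lowest values were those of *Tma16* (-0.94), *Apela* (-0.93) and *Slc6a15* (-0.93). Of the members, *Apcdd1* had an r of 0.92 and *Cdx1* of 0.85, while *Sp5* (0.28), *Tcf7l1* (0.24) and *Lef1* (0.04) ran apart from *Axin2*, and *Nkd1* and *Dkk1* varied too little to enter.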

How the data were processed

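*Max*-null ESCs were measured on 10 arrays, 8 in LIF+serum and 2 in 2i+LIF. The authors subtracted background and normalized by RMA (affy), and they deposited log2 values, with versions and joint normalization not given in the sources used here. RMA compresses differences near the background, and folds of dim probe sets are likely too small. The labels of the 8 arrays name no medium for each array, and their growth protocol lists a 2i/Nam condition beside LIF+serum. LIF+serum follows the study's methods and the titles, which mark only the other 2 arrays as 2i. Of 45101 probe sets, 64 controls were left out. The platform annotation gave 1 symbol for 34945 of the other 45037, several for 932 and did not list 9160.

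From these values limma 3.58.1 in R 4.3.3 (lmFit, eBayes) estimated a slope per day of Dox, adjusted for the array set (5 residual and 4.81 prior degrees of freedom), and untreated 2i+LIF was set against both untreated LIF+serum arrays (1 residual and 6.19 prior). Folds compare 1 array with 1 array and were counted at 2-fold. Counts, folds and figures were made in Python 3.11.15 (pandas 2.3.3, numpy 2.4.6, matplotlib 3.10.9). The code of the fits was run on simulated data with less noise than these arrays and larger changes than the members showed. That run does not show how well the fits find changes of the size seen here. Named genes are all members, the ESC markers *Pou5f1* and *Sox2*, up to 4 called genes of each of 14 lists (otherwise the 2 with the largest change), and the 5 genes most and 3 least correlated with *Axin2*. The members and lists were chosen with earlier results of these data known. The number of arrays limits the precision.

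Alternatives left out the set term, used log2(day + 1), kept probe sets that reach 6, normalized or centred again, used trend and robust in eBayes, averaged a gene's probe sets, left out each array, fitted all 10 arrays, changed the reference or counted at 1.5-fold.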

Additional observations from a re-analysis of the deposited data

Results flagged for a closer look

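For 3 of the 20 probe sets, every Dox array in LIF+serum lay below its untreated array while Dox in 2i+LIF lay above its own. On *Tcf7l1* 1450117_at the log2 fold was 0.28 in 2i+LIF and between -0.72 and -0.20 on the 6 Dox arrays in LIF+serum, and on *Tcf7l1* 1436207_at it was 0.27 against -0.59 to -0.25. On *Dkk1* 1458232_at, a probe set at the bottom of the scale, it was 0.10 against -0.72 to -0.16. The difference between the media was not tested. Opposite directions of this kind, in either order, were found for 15.2% of all probe sets (6842). The 3 of 20 member probe sets are near that share, so the pattern is not particular to the members.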

How the results depend on the processing

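With 1 array per Dox time, the calls in LIF+serum rest on few arrays. The number of probe sets that rose was 4, and 1 with log2(day + 1), with quantile normalization once more, with each array centred on its median and with the first array set alone, while it was 6 without the set term and with the second array set alone (both single sets were chosen after seeing the data). With the mean of a gene's probe sets it was 1 gene (*Cdx1*) in place of 3. The number that fell was 1, and 0 with quantile normalization or the first array set alone and 2 with trend and robust. Leaving out 1 array gave 0 to 5 that rose and 0 to 1 that fell. The fit lacking the second untreated array called 0 of all probe sets with limma, and there 3165 had a positive and 2974 a negative slope at an unadjusted p under 0.05. The slope of *Nkd1*, not called, became -0.0142 without the set term, -0.0071 after quantile normalization and -0.0022 after centring, and ran from -0.0162 to 0.0311 without 1 array. With the mean of its probe sets *Dkk1* turned to a slope of -0.0051 and a difference between media of -0.12.

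Between the untreated media, 2 probe sets were higher and 2 lower in the fit over 10 arrays, 1 higher with trend and robust (*Cdx1*, adjusted p = 0.0498 from limma), and 1 gene was higher (*Cdx1*) and 1 lower (*Lef1*) with the mean of probe sets, where 0 were called otherwise. Over all probe sets, the calls were 41 higher and 17 lower, 2231 and 3259 over 10 arrays, 218 and 118 with trend and robust, and 0 of either after quantile normalization, centring or the filter at 6. The fit over 10 arrays took its spread from the LIF+serum arrays alone, so its calls do not measure how 2i+LIF arrays vary. With quantile normalization or centring, 5 probe sets in place of 3 lay above all 8 LIF+serum arrays.

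Against the other untreated array, or the mean of both, the count at least 2-fold lower became 0 at 2 d (from 7), 0 at 4 d (from 1) and 1 at 6 d (from 0), and 2 were higher at 4 d against the other untreated array (from 1). At 1.5-fold, 2 were lower at 4 d, 2 at 6 d and 4 at 8 d, and 10 were higher at 8 d. The cause of these changes was not tested. No paired analysis was possible because the labels give the groups no shared replicate numbers. The array set, defined here by which untreated array is the reference, was a covariate of the slopes.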
